A study of Homo sapiens with 3 samples.

Results

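The miR-34 family of the human hepatocellular carcinoma line HCCLM3 was followed across small RNA libraries of its parent cells and 2 derived strains. Members were taken by name. Every listed mature miRNA called hsa-miR-34a, hsa-miR-34b, hsa-miR-34c, hsa-miR-449a, hsa-miR-449b or hsa-miR-449c, with either arm of the hairpin, was included. This gave 11 of the 1921 names in the count tables, of which 6 had a count in at least 1 library, 3 had a count in every library and 1 reached a mean of 10 CPM (counts scaled so that each library sums to 1e+06). The remaining 5 names, hsa-miR-34b-5p, hsa-miR-34b-3p, hsa-miR-34c-3p, hsa-miR-449b-3p and hsa-miR-449c-3p, had no count anywhere.

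The libraries were named parent, subclone1 and subclone2, with 1 library in each group. All came from untreated cultured HCCLM3 cells. The labels give the parent low metastasis, subclone1 a raised ability to reach the lung, and subclone2 an ability to reach both the lung and the celiac lymph node. The study's text describes the parental line as fluorescently marked and highly metastatic, and its derived lines as monoclonal, grown by limiting dilution from metastases in nude mice. The labels do not say which of those clones subclone1 and subclone2 are, so each stands for a single derived strain. With 1 library per group, no difference below has a replicate check, no p-value is given, and a call compares libraries rather than metastatic abilities.

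The parent library held 7902438 counts, subclone1 3570864 and subclone2 4568075, so the limit for a name at 0 (3 counts) was 0.380, 0.840 and 0.657 CPM. Every interval is an exact 95% interval. Reads carried no molecular identifiers in these tables, and intervals and limits cover counting error only. hsa-miR-122-5p, the most abundant miRNA of normal hepatocytes, was low, at 6.71 CPM (53 counts) in the parent, 5.32 CPM (19 counts) in subclone1 and 3.94 CPM (18 counts) in subclone2.

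The miR-34 genes are known as tumour-suppressive miRNA genes that respond to DNA damage and other stress. A mature miRNA guides the silencing complex to messenger RNAs that pair with its seed, the bases near its 5′ end, and miR-34 is known for repressing regulators of the cell cycle, survival and invasion, such as CDK6, BCL2, MET and SNAI1. The miR-449 members carry a related seed and are best known from multiciliated cells, where they are made from an intron of CDC20B.

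The mature guide sequences are shown because they share a run of bases at or next to the seed, which also occurs in a miRNA outside the family. They are from RefSeq (GRCh38.p14), which held 9 of the 11 members; hsa-miR-34c-5p and hsa-miR-449c-3p are named only. Capitals mark the bases that match positions 2 to 8 of hsa-miR-34a-5p.
hsa-miR-34a-5p: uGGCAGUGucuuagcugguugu
hsa-miR-449a: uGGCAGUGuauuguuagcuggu
hsa-miR-449b-5p: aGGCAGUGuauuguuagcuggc
hsa-miR-34b-5p: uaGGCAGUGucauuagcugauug
hsa-miR-449c-5p: uaGGCAGUGuauugcuagcggcugu
hsa-miR-2682-5p: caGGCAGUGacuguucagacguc

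The sequences fell into 2 sets. hsa-miR-34a-5p, hsa-miR-449a and hsa-miR-449b-5p held these bases at positions 2 to 8 and were the only 3 of the 2370 mature sequences in the table to do so (0.127%). hsa-miR-34b-5p, hsa-miR-449c-5p and hsa-miR-2682-5p held them 1 base further in, at positions 3 to 9, and were likewise the only 3 of 2370 (0.127%). hsa-miR-34c-5p and hsa-miR-449c-3p, whose sequences were not held, could not be placed in or out of either set. Beyond these bases the members diverged. The longest run of bases shared with hsa-miR-34a-5p was 9 for hsa-miR-449a and hsa-miR-34b-5p, 8 for hsa-miR-449b-5p and hsa-miR-449c-5p, and 7 for hsa-miR-2682-5p. hsa-miR-449a and hsa-miR-449b-5p shared 20 consecutive bases, so the few reads under either name are of uncertain assignment.

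The hairpins lie at 3 loci (GRCh38). MIR34A is at chr1:9151668-9151777 on the minus strand, in an exon of the noncoding host gene MIR34AHG. MIR34B, at chr11:111512938-111513021, and MIR34C, at chr11:111513439-111513515, lie within 578 bases of each other on the plus strand and overlap no other annotated gene. MIR449A at chr5:55170532-55170622, MIR449B at chr5:55170646-55170742 and MIR449C at chr5:55172262-55172353 lie within 1822 bases in an intron of CDC20B on the minus strand.

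hsa-miR-34a-5p, the guide arm of MIR34A, was the main member in every library and was highest in the parent. Its count was 255 in the parent, and 59 and 48 in subclone1 and subclone2, which were 32.3 CPM (28.4 to 36.5), 16.5 CPM (12.6 to 21.3) and 10.5 CPM (7.75 to 13.9). The interval of the parent lay above those of both subclones, while the intervals of the subclones overlapped. By count it ranked 121 of the 743 names detected in the parent, and 167 of 670 and 182 of 675 in subclone1 and subclone2. It thus had more counts than 83.7% of the detected names in the parent, and than 75.1% and 73.0% in subclone1 and subclone2. Its own level was above 10 CPM in each library, though the interval of subclone2 included 10 CPM.

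For comparison between libraries, counts were scaled to the library total with 0.5 counts added. A miRNA was kept if it averaged 10 CPM or more in the pair compared. It counted as called, higher or lower, if it differed by 2-fold or more and the interval left out 1. hsa-miR-34a-5p was the single member kept. In subclone2 it was called lower than in the parent, with a log2 ratio of -1.61 (-2.10 to -1.17), the parent being 3.05-fold higher (2.25 to 4.27). It had the 3rd lowest ratio of 187 kept miRNAs. Among all kept miRNAs 9 of 187 were called lower (4.81%) and 11 higher (5.88%).

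In subclone1 the log2 ratio against the parent was -0.96 (-1.40 to -0.55), or 0.515 of the parental level (0.379 to 0.682). The interval excluded 1, but the ratio stopped short of 2-fold and the miRNA was not called. It ranked 7 of 192 from the lowest, where 6 were called lower (3.12%) and 19 higher (9.9%). An interval that excluded 1 was common at this depth, with 132 of the 192 (68.8%) here and 130 of the 187 (69.5%) in subclone2.

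Between the subclones hsa-miR-34a-5p was at 16.5 and 10.5 CPM, with a log2 ratio of subclone2 to subclone1 of -0.65 (-1.23 to -0.08), and was not called. It ranked 25 of 191 from the lowest, with 8 of 191 called lower (4.19%) and 3 higher (1.57%).

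**Figure D1:**
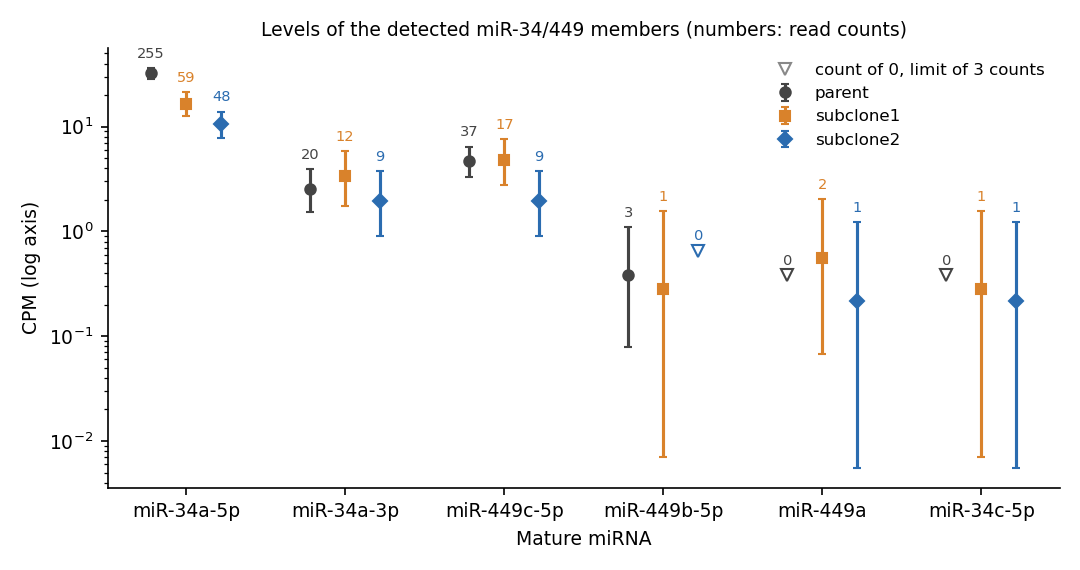
Levels of the 6 members with a count, in CPM on a log axis, with exact 95% intervals for counting error and the read count beside each point; open triangles mark the limit of 3 counts for a count of 0. hsa-miR-34a-5p has 255 counts (32.3 CPM) in the parent against 59 and 48 (16.5 and 10.5 CPM) in the subclones, and the other members stay below 5 CPM.

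The ratios depended on how libraries were scaled. Over all kept miRNAs the log2 ratio had a median of 0.02 for subclone1 and -0.15 for subclone2, each against the parent, and of -0.17 for subclone2 against subclone1. Relative to these medians hsa-miR-34a-5p stood at -0.97, -1.45 and -0.48. With edgeR's TMM factors the median moved by -0.06, 0.17 and 0.23, to -0.04, 0.02 and 0.07. In subclone1 this did not centre the median better. A change of scaling shifts all miRNAs of a comparison alike, so hsa-miR-34a-5p kept its distance from the median. hsa-miR-34a-5p was then at -1.02 in subclone1, which passed 2-fold and became a call, and at -1.44 (-1.92 to -0.998) in subclone2, which stayed a call. Between the subclones it was at -0.42 (-1.001 to 0.15), so the order of the subclones was not resolved. DESeq2's median-of-ratios factors gave -1.02, -1.46 and -0.44, and a total that left out the 10 leading miRNAs of each library gave -1.03, -1.53 and -0.51.

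**Figure D2:**
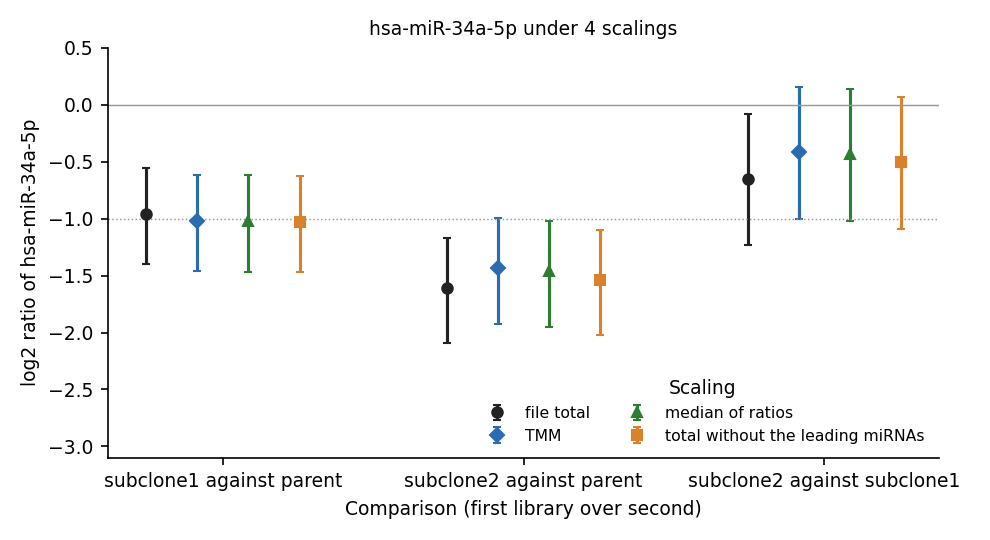
Log2 ratio of hsa-miR-34a-5p (y axis) in each comparison under 4 scalings, with exact 95% intervals for counting error; the dotted line is 2-fold lower. Subclone1 sits at the 2-fold line (-0.96 to -1.03), subclone2 lies below it (-1.44 to -1.61), and 3 of the 4 intervals between the subclones include 0.

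The passenger arm was scarce. hsa-miR-34a-3p had 20 counts in the parent and 12 and 9 in subclone1 and subclone2, or 2.53 CPM (1.55 to 3.91), 3.36 CPM (1.74 to 5.87) and 1.97 CPM (0.901 to 3.74). All 3 intervals overlapped. The log2 ratio was 0.43 (-0.76 to 1.51) in subclone1 and -0.32 (-1.68 to 0.84) in subclone2 against the parent, and neither was called. The interval left out the guide arm's ratio of -0.96 in subclone1 and held its ratio of -1.61 in subclone2.

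The balance of the arms needs no scaling. The 5p arm took 255 of 275 MIR34A counts in the parent (92.7%, 89.0 to 95.5), 59 of 71 in subclone1 (83.1%, 72.3 to 91.0) and 48 of 57 in subclone2 (84.2%, 72.1 to 92.5). The number of 5p counts per 3p count was 12.8, 4.92 and 5.33. Against the parent this ratio was 0.387 as large in subclone1 (0.169 to 0.919), with an interval that excluded 1, and 0.420 as large in subclone2 (0.170 to 1.11), with an interval that did not. Between the subclones it was 1.08 (0.382 to 3.18).

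Other hairpins moved by as much. Among hairpins with at least 5 counts on each arm in both libraries, 7 of the other 81 (8.64%) changed their log2 arm ratio, in either direction, by at least as much as MIR34A (-1.37) between subclone1 and the parent. Between subclone2 and the parent it was 8 of 79 (10.1%), with MIR34A at -1.26. Small counts of the 3p arm, 9 to 20 per library, set the precision.

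**Figure D3:**
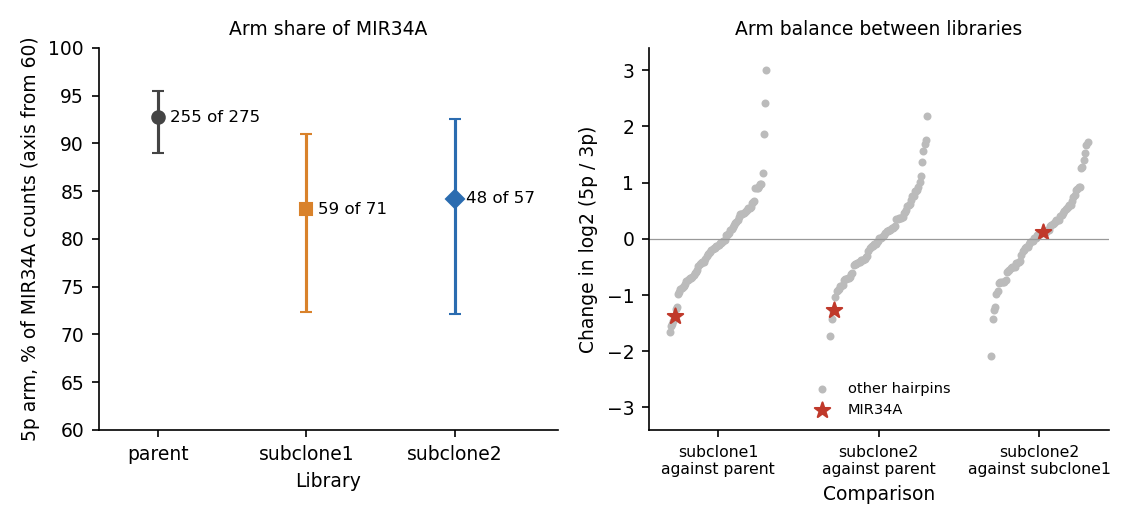
Left, percentage of MIR34A counts on the 5p arm per library with exact 95% intervals (axis from 60). Right, change in the log2 ratio of 5p to 3p counts for each hairpin, sorted within each comparison, with MIR34A as a star; it lies near the lower end against the parent (-1.37 and -1.26) and near the middle between the subclones (0.12).

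hsa-miR-449c-5p was the most counted of the remaining members and was low throughout. Its count was 37 in the parent, and 17 and 9 in subclone1 and subclone2, which were 4.68 CPM (3.30 to 6.45), 4.76 CPM (2.77 to 7.62) and 1.97 CPM (0.901 to 3.74). Parent and subclone1 were level, with a log2 ratio of 0.05 (-0.90 to 0.89), and subclone2 was the lowest.

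With no minimum on level, hsa-miR-449c-5p was called lower in subclone2 than in the parent at -1.19 (-2.49 to -0.17) and than in subclone1 at -1.24 (-2.62 to -0.03). Without that minimum 2 of the 6 members with counts were called lower in subclone2 against the parent, where 40 of 827 names were (4.84%). Against subclone1 it was 1 of 6, where 28 of 780 were (3.59%), and in subclone1 against the parent it was 0 of 6, where 22 of 825 were (2.67%). Under TMM the ratio to the parent was -1.02 (-2.31 to -0.00097). That to subclone1 was -1.004 (-2.39 to 0.21) and was no longer called. All counts of the MIR449C hairpin were on the 5p arm.

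The other members were at the limit of detection. hsa-miR-449b-5p had 3 counts in the parent, 1 and 0 in subclone1 and subclone2. hsa-miR-449a had 0, 2 and 1, and hsa-miR-34c-5p had 0, 1 and 1. MIR34B and MIR34C, known to be expressed mainly in lung, testis and ciliated epithelium, thus gave 2 counts over all libraries. None was called in any comparison, no ratio is given at such counts, and differences between libraries were not detectable at this depth.

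Summed over all names, the family had 315 counts in the parent and 92 and 68 in subclone1 and subclone2, or 39.9 CPM (35.6 to 44.5), 25.8 CPM (20.8 to 31.6) and 14.9 CPM (11.6 to 18.9). hsa-miR-34a-5p made up 81.0%, 64.1% and 70.6% of these counts, so the sum largely repeats its pattern. The log2 ratio of the sum to the parent was -0.62 (-0.98 to -0.29) in subclone1, not called, and -1.41 (-1.82 to -1.04) in subclone2, called lower. Between the subclones it was -0.79 (-1.27 to -0.32). Without hsa-miR-34a-5p the sum was 60, 33 and 20 counts, with a log2 ratio to the parent of 0.29 (-0.38 to 0.92) in subclone1 and -0.77 (-1.60 to -0.04) in subclone2, neither called. Between the subclones it was -1.06 (-1.96 to -0.23), called lower in subclone2, where the sum of the whole family was not. That call holds for the file total. TMM factors raise the log2 ratios of this comparison by 0.23, which leaves the sum short of 2-fold.

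hsa-miR-2682-5p, which is no member by name but carries the same bases shifted by 1 position, went the other way. It had 93 counts in the parent and 103 and 110 in subclone1 and subclone2, which were 11.8, 28.8 and 24.1 CPM. It was called higher than in the parent in both subclones, at a log2 ratio of 1.29 (0.87 to 1.71) in subclone1 and 1.03 (0.62 to 1.45) in subclone2, and it was called under all 4 scalings. Its hairpin lies at chr1:98045242-98045351 on the minus strand, in an exon of MIR137HG.

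In the parent hsa-miR-34a-5p was above hsa-miR-2682-5p by read count, and in both subclones it was below. Such an order compares different miRNAs and carries the ligation bias of the library kit, whereas its reversal between libraries rests on the same names. Summed over the 6 names with these bases at either position, counts were 388, 182 and 168, or 49.1 CPM (44.3 to 54.2), 51.0 CPM (43.8 to 58.9) and 36.8 CPM (31.4 to 42.8). hsa-miR-34c-5p (0, 1 and 1 counts) was left out because its sequence was not held. The share of hsa-miR-34a-5p in this sum was 65.7% in the parent, and 32.4% and 28.6% in subclone1 and subclone2. The log2 ratio of the sum to the parent was 0.06 (-0.21 to 0.31) in subclone1 and -0.41 (-0.69 to -0.15) in subclone2. Under TMM these were -0.01 (-0.27 to 0.25) and -0.24 (-0.52 to 0.02). The sum with hsa-miR-2682-5p was added after its values were seen.

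**Figure D4:**
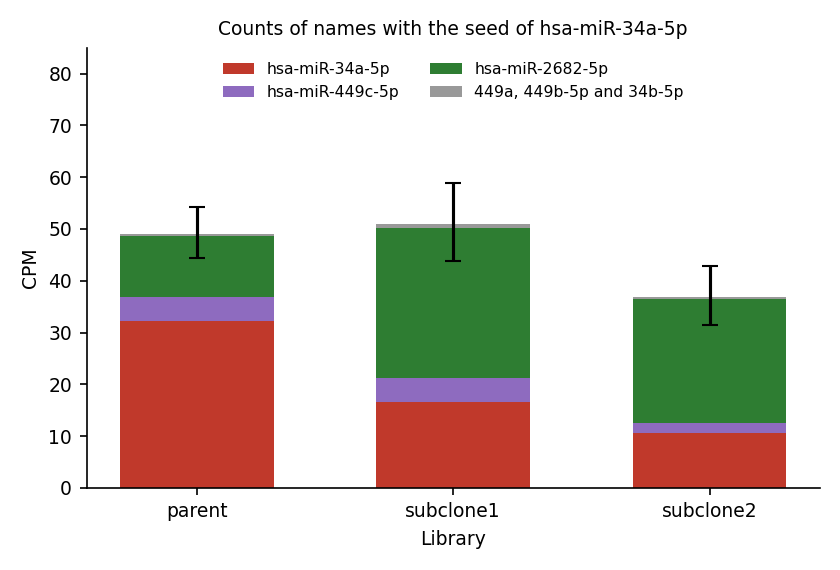
Stacked CPM per library of names that hold the bases 2 to 8 of hsa-miR-34a-5p at positions 2 to 8 or 3 to 9; bars are exact 95% intervals of the total for counting error. Totals are 49.1, 51.0 and 36.8 CPM, within which hsa-miR-34a-5p goes from 65.7% of counts in the parent to 32.4% and 28.6% in the subclones.

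The miRNAs whose pattern was most like that of hsa-miR-34a-5p were sought among 192 kept over all libraries, by the distance in the 2 log2 ratios against the parent. Both ratios share the parent library. The nearest was hsa-miR-4521, at a distance of 0.20, with 171 CPM in the parent and 76.7 and 56.9 CPM in subclone1 and subclone2. Then came hsa-miR-19b-3p (distance 0.26) with 35.7, 19.6 and 9.85 CPM, hsa-miR-17-5p (0.40) with 66.4, 32.8 and 28.7 CPM, hsa-miR-20a-5p (0.49) with 47.5, 18.2 and 12.9 CPM, and hsa-miR-181a-2-3p (0.49) with 66.1, 43.1 and 27.6 CPM. Of these 5, 3 come from the miR-17-92 group of oncogenic, growth-promoting miRNAs. Further kept names of that group lay farther off, hsa-miR-92a-1-5p at 0.68, hsa-miR-17-3p at 1.05 and hsa-miR-92a-3p at 1.36. None of the 5 nearest shared more than 5 consecutive bases with hsa-miR-34a-5p.

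The order alone was common. The parent was highest and subclone2 lowest for 49 of the 192 (25.5%), and 82 (42.7%) were lower in both subclones. The size of both falls was rarer, but not peculiar to hsa-miR-34a-5p. Only hsa-miR-20a-5p had both ratios at or below its own, a cut-off that leaves out near ties. In subclone2 hsa-miR-4521, at -1.58, lay well inside the interval of hsa-miR-34a-5p (-2.10 to -1.17). With scaling to the library total, hsa-miR-34a-5p was not called in subclone1. By contrast, hsa-miR-4521 (-1.15 and -1.58) was called lower in both subclones. The same held for hsa-miR-17-5p (-1.02 and -1.21), for hsa-miR-20a-5p (-1.37 and -1.87) and for hsa-miR-92a-1-5p (-1.60 and -1.38).

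**Figure D5:**
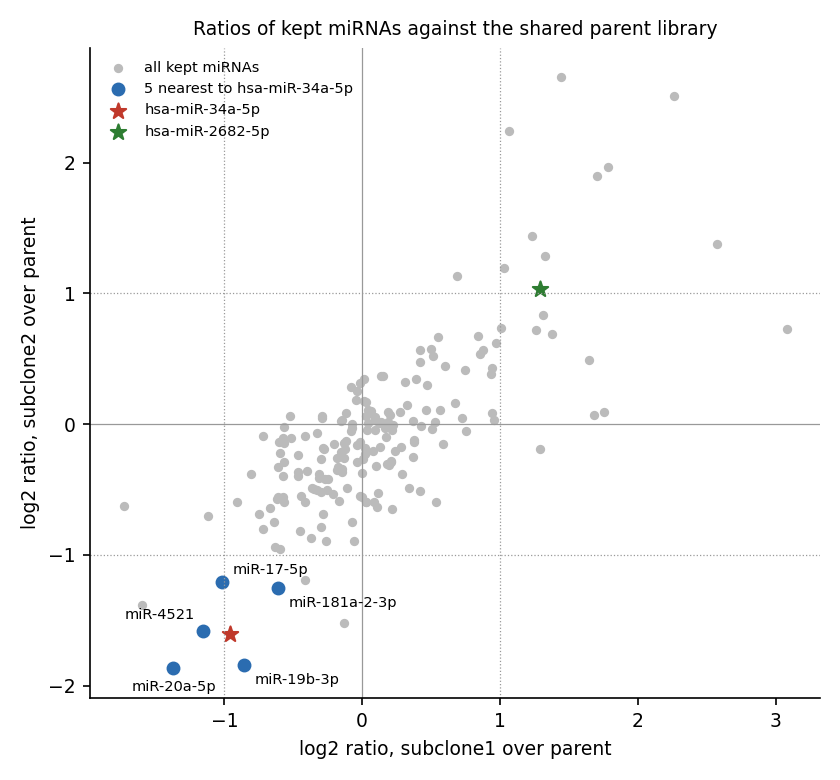
Log2 ratio of subclone2 over parent against that of subclone1 over parent for 192 kept miRNAs, with 2-fold lines dotted; both axes share the parent library. hsa-miR-34a-5p (-0.96, -1.61) lies at the lower left edge beside its 5 nearest miRNAs, and hsa-miR-2682-5p (1.29, 1.03) at the upper right.

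A list of 6 guide-arm names of the miR-17-92 group, to which 3 of the nearest miRNAs belong, was also examined, and 4 of them were kept. It was 1 of 3 lists chosen with earlier results of these data known, and the other lists are not reported here. In subclone1 2 were called lower than in the parent and 0 higher, where 3.12% of all kept miRNAs were lower and 9.9% higher, and the median log2 ratio was -0.94 beside 0.02 for all kept. In subclone2 3 were lower and 0 higher, where 4.81% were lower and 5.88% higher, and the median was -1.53 beside -0.15. hsa-miR-17-5p (-1.02 and -1.21) and hsa-miR-20a-5p (-1.37 and -1.87) were called lower in both subclones, and hsa-miR-19b-3p (-0.86 and -1.84) in subclone2. The same 3 names had been picked as nearest to hsa-miR-34a-5p by these ratios. Their calls and the low median therefore follow from that pick and are no independent result. hsa-miR-92a-3p stood at -0.31 and -0.41 and was not called. Between the subclones none of the 4 was called, with a median of -0.34. Names of the same group outside the list, taken up after their values were seen, were hsa-miR-92a-1-5p at -1.60 and -1.38, called lower in both subclones, and hsa-miR-17-3p at -0.30 and -0.79, not called. These miRNAs are cut from shared precursors, hence they are not separate cases.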

How the data were processed

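Total RNA from cultured cells was extracted with Trizol, and 1 ug entered the Illumina TruSeq small RNA kit. The authors deposited raw read counts per mature miRNA name, 1 table per library and without scaling. The submitters' processing notes list CASAVA 1.4 and hg19. The aligner, miRBase release and handling of shared reads are not given in the sources used here. Sequential adapter ligation favours some RNA ends, so ratios compare the same miRNA between libraries.

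CPM carry Clopper-Pearson intervals at the 95% level. Log2 ratios (0.5 counts added) carry exact conditional binomial intervals, and the procedure was tested on simulated data. No test between groups was made, since each group holds 1 library. Named miRNAs are all family members, others with the seed of hsa-miR-34a-5p and a count, the 5 nearest in pattern, called members of a miR-17-92 list, and kept names within 10 Mb of MIR34A. Outside this rule, hsa-miR-122-5p was named as a liver check. hsa-miR-92a-3p, hsa-miR-92a-1-5p, hsa-miR-17-3p, hsa-miR-200b-5p, hsa-miR-429, hsa-miR-5697 and hsa-miR-1273d were named after their values were seen. Members and lists were chosen with earlier results of these data known. Sequences are from RefSeq (GRCh38.p14) and gene overlaps from GENCODE 29. Alternatives were edgeR 4.0.16 TMM and DESeq2 1.42.0 size factors (R 4.3.3), a total without the leading miRNAs, other minimums, fold thresholds and added counts. Python 3.11.15, numpy 2.4.6, pandas 2.3.3, scipy 1.17.1 and matplotlib 3.10.9 were used.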

Additional observations from a re-analysis of the deposited data

How the results depend on the processing

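No called value changed direction. Of the values recomputed for the comparisons, 80 stayed on the same side of the threshold or within 1.5 times, 10 gained one and 12 counts of calls moved by over 1.5 times. Members other than hsa-miR-34a-5p are not in that tally. Of them, hsa-miR-449c-5p lost its call between the subclones under TMM (-1.004), median-of-ratios factors (-1.02) and a total without the leading miRNAs (-1.09). hsa-miR-34a-5p ranged from -1.03 to -0.80 on the log2 scale in subclone1 against the parent, from -1.61 to -1.44 in subclone2 against the parent (called lower each time), and from -0.67 to -0.42 between the subclones. In subclone1 it gained a call under TMM (-1.02), median-of-ratios factors (-1.02), a total without the leading miRNAs (-1.03) and a 1.5-fold threshold (-0.96). A 1.5-fold threshold also added the family sum in subclone1 (-0.62), hsa-miR-34a-5p between the subclones (-0.65) and the family sum between them (-0.79). The median of the miR-17-92 list in subclone1 passed 2-fold under median-of-ratios factors (-1.002), a total without the leading miRNAs (-1.01) and no minimum (-1.05). The sum of names with the bases 2 to 8 of hsa-miR-34a-5p at either position, hsa-miR-2682-5p included, was -0.41 in subclone2. It was added after the data were seen and was not called, unlike the family sum.

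Calls in subclone1 against the parent numbered 25, and 67 with no minimum, 7 at 100 CPM, 56 at 1.5-fold and 13 with the interval wholly beyond 2-fold. In subclone2 against the parent they numbered 20, and 75, 5, 50 and 13. Between the subclones they numbered 11, and 33, 2, 36 and 5; there 3 were higher and 8 lower, and 3 and 5 under TMM or median-of-ratios factors. No paired analysis was possible because every group has a single library, and for that reason no library could be left out in turn. Depth limits the members other than hsa-miR-34a-5p, each with 37 counts or fewer per library.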

Other observations

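On chromosome 1, 26 annotated hairpin genes lie within 10 Mb of MIR34A, 16 of them with a listed name. They give 20 names, of which 7 had a count and 2 reached a mean of 10 CPM. Those were hsa-miR-200b-3p and hsa-miR-200a-3p, epithelial miRNAs of 1 cluster. Their hairpins lie far off within that window, at -7.98 Mb relative to MIR34A, where a minus sign marks lower coordinates. hsa-miR-200b-3p was at 16.5 CPM in the parent and at 24.1 and 26.1 CPM in subclone1 and subclone2, with log2 ratios to the parent of 0.55 (0.14 to 0.95) and 0.66 (0.29 to 1.03). hsa-miR-200a-3p had log2 ratios of 0.69 (0.38 to 0.99) and 1.13 (0.87 to 1.40). Of these ratios, that of hsa-miR-200a-3p in subclone2 was called higher and the other 3 were not called. With no minimum on level, hsa-miR-200b-5p (32, 30 and 42 counts) was called higher in subclone1 at 1.05 (0.28 to 1.82). In subclone2 it was called higher at 1.18 (0.48 to 1.89). Among all names at that setting 45 of 825 and 35 of 827 were higher. hsa-miR-429 of the same cluster (19, 12 and 17 counts) was not called. The nearest neighbours with counts were hsa-miR-5697 at 0.82 Mb (6, 2 and 1 counts) and hsa-miR-1273d at 1.08 Mb (7, 2 and 3 counts). Both were too low to give a direction.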
